A study of Mus musculus with 6 samples.

Results

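Inhibitory receptors restrain T cells after activation, and 8 genes of this system are described here in cultured mouse CD8+ T cells. They are the receptors Pdcd1 (PD-1), Lag3, Ctla4, Cd244a (2B4), Havcr2 (TIM-3) and Cd200r1, and the ligands Cd274 (PD-L1) and Cd200. The members are all probe sets whose gene symbol in GEO's platform annotation is one of these names, on any of 3 array types called SubA, SubB and SubC. That gave 7 probe sets for 7 of the 8 genes, among 15964 named genes in all, with 5 probe sets on SubA, 1 on SubB and 1 on SubC. No probe set carried the symbol Havcr2, so its signal was not analysed here.

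The cells came from the spleen and lymph nodes of female P14 mice, which carry a transgenic T cell receptor for a viral peptide on the C57Bl/6 background. All cultures received the cognate peptide for 2 days and a cytokine for 7 further days. Cells kept in IL-15 and sorted for high levels of a homing receptor were called central memory (CM) cells, and cells kept in IL-2 and sorted for low levels effector/effector memory (E/EM) cells. Each kind was hybridised once to each array type, so every value below compares 1 array with 1 array. There was no replicate and no test, the number of cultures and mice is not given in the labels used here, and differences were described by a rule of size, 2-fold.

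In T cells these receptors appear after antigen stimulation and can dampen signals of the T cell receptor and of CD28. PD-1 and 2B4 can do so through tyrosine motifs in their tails that bind phosphatases or adaptor proteins. CTLA-4 competes with CD28 for the ligands CD80 and CD86, and LAG-3 binds MHC class II and other ligands. Their sustained joint expression is known from exhausted T cells in chronic infection, while single receptors also mark recently activated effector cells.

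A signal above background in both CM and E/EM cells was found for 5 members, and 4 of these 5 were lower in CM cells by 2-fold or more, with 0 higher by that rule. The same rule held downward for 614 (5.61%) and upward for 299 (2.73%) of all 10946 named genes measured on both arrays. The 4 are the receptors Pdcd1, Lag3, Cd244a and Ctla4, and all 4 were read on the same pair of SubA arrays, on which 4.37% of named measured probe sets were at least 2-fold lower. The fifth, the ligand Cd274, had almost equal signals. Ratios are given as log2 of the CM signal divided by the E/EM signal, so a negative value means lower in CM cells, and their median was -2.41 over the 5 members and -0.0025 over all measured genes. The remaining 2 members on the arrays, Cd200 and Cd200r1, had no signal above background in either kind. Background was set for each array type by a floor taken from 15 probe sets for bacterial transcripts, as their 90th percentile on whichever of the 2 arrays gave the larger value. The floor was a signal of 31.28 on SubA, 88.12 on SubB and 194.34 on SubC.

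Pdcd1 encodes PD-1, the receptor for PD-L1 and PD-L2. Its probe set (98836_at, SubA) had a signal of 38.3 in CM cells and 251.2 in E/EM cells, a log2 ratio of -2.71 or 6.56-fold lower in CM cells. The CM signal lay only 1.22 times above the floor, close to background, whereas the E/EM signal was 8.03 times the floor. The size of the ratio is therefore uncertain. With the floor doubled, Pdcd1 was above background in E/EM cells alone and at least 4.02-fold lower in CM cells. With an offset of 50 added to every signal, which damps ratios of weak signals, its log2 ratio was -1.77. On SubA, probe sets with a weaker signal under 2 times the floor passed the 2-fold rule downward more often than stronger ones, 10.6% against 3.42%.

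Lag3 encodes a CD4-related receptor that binds MHC class II. Its probe set (98392_at, SubA) read 145.3 in CM and 891.1 in E/EM cells, and both signals were clear of the floor, at 4.65 and 28.5 times its value. The log2 ratio was -2.62, or 6.13-fold lower in CM cells, and -2.27 with the offset. Cd244a, a receptor of the SLAM family shared with natural killer cells, had a log2 ratio of -2.41 (95380_at, SubA). It read 85.1 in CM and 451.7 in E/EM cells, which is 5.31-fold lower, and its weaker signal was 2.72 times the floor. The offset brought it to -1.89.

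Ctla4 encodes the high-affinity competitor of CD28. Its probe set (97718_at, SubA) read 880.0 in CM and 2472.0 in E/EM cells, a log2 ratio of -1.49 or 2.81-fold lower. The CM signal was 28.1 times the floor, so Ctla4 was well measured in both kinds, and the offset changed its ratio to -1.44 only. Ctla4 thus had the smallest fold difference of the 4 lower receptors and the smallest dependence on the offset. It passed the 2-fold rule and not a 3-fold rule.

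Cd274 encodes PD-L1, the ligand of PD-1, which activated T cells can also carry. Its probe set (109469_at, SubB) read 577.6 in CM and 581.7 in E/EM cells, both over 6 times the floor of that array type. The log2 ratio was -0.01, with a range of -0.01 to 0.01 over 7 processing alternatives, so its sign was not settled. The SubB arrays are not those that carried the 4 lower receptors.

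Cd200, an immunoglobulin family ligand, read 25.9 in CM and 30.8 in E/EM cells (101851_at, SubA), both just under the floor of 31.28. With the floor halved it had a log2 ratio of -0.25. Cd200r1 encodes its receptor, found mainly on myeloid cells and on subsets of T cells. It read 96.5 in CM and 66.4 in E/EM cells (167908_r_at, SubC), well under the SubC floor of 194.34, and it stayed there with the floor halved. The r in the name of this probe set marks relaxed rules of probe selection. No direction is given for either gene.

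**Figure D1:**
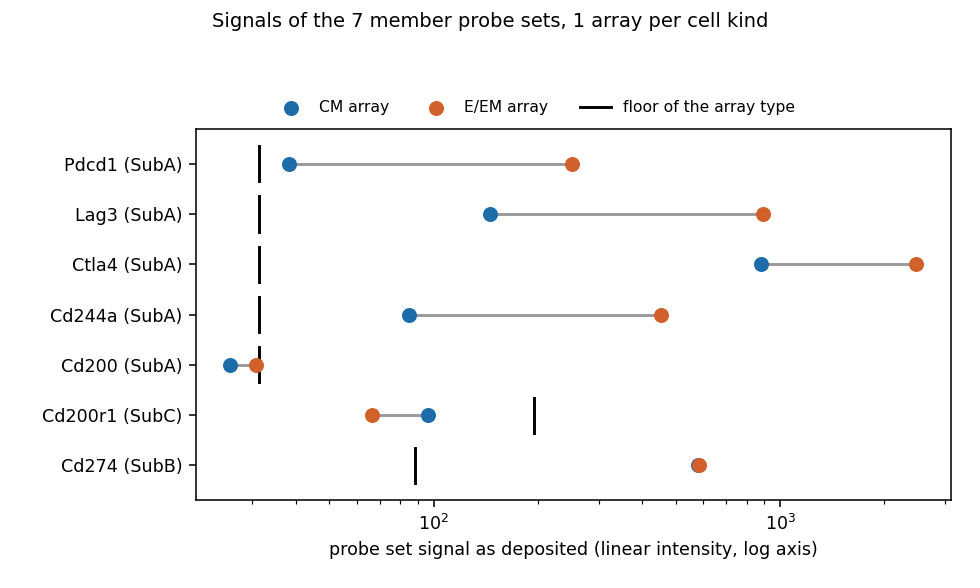
Deposited probe set signal (horizontal, log axis) of each member on its CM array (blue) and its E/EM array (orange), with a black bar at the floor of the array type; 1 array per point, so there are no error bars. Pdcd1, Lag3, Ctla4 and Cd244a lie to the left in CM cells, Cd274 has 577.6 and 581.7, and Cd200 and Cd200r1 lie under the floor in both.

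How far a ratio moves between hybridisations could be read from 22 mouse control probe sets that all 3 array types carry and that were above the floor on all 6 arrays. Whether 1 RNA preparation was used on all 3 array types is not stated in the labels, and the controls target few transcripts. They include probe sets for 18S ribosomal RNA and sense probe sets of actin and Gapdh. The SD of a control's log2 ratio over the 3 array types had a median of 0.26, from 0.09 to 0.54. The range over the array types had a median of 0.51 and a maximum of 1.04. For named genes with at least 2 measured probe sets, the median SD over probe sets was 0.32.

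This spread covers hybridisation, and whether it also holds differences between RNA preparations or cultures is not known. It is therefore no measure of variation between cultures or mice. The controls were chosen above the floor on all arrays, so the spread says less of weak signals such as that of Pdcd1. The 4 lower receptors lay farther from 0 than the largest range of a control, and Cd274 did not, which is a description and no test. Pdcd1, Lag3 and Cd244a differed from one another by at most 0.31 in log2 ratio, less than the median range of the controls, so their order is not settled. With the offset of 50 the order changed, and Lag3 had the lowest ratio. Ctla4 differed from Lag3 by 1.13, from Cd244a by 0.92 and from Pdcd1 by 1.22, but with the offset its difference from Pdcd1 was smaller than the median control range. Whether Ctla4 differs from the others in its ratio is therefore not settled by these arrays.

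**Figure D2:**
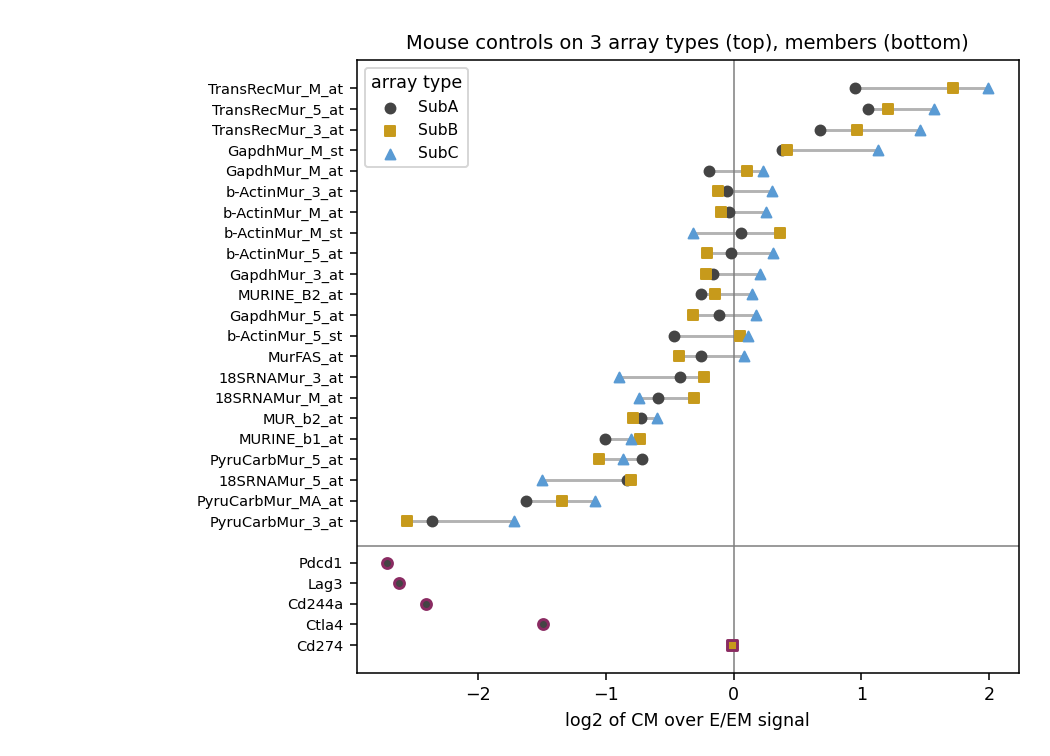
Log2 ratio, CM divided by E/EM, on the horizontal axis, of 22 mouse control probe sets on SubA, SubB and SubC, joined by a grey line, and of the 5 measured members below. The widest control range is 1.04, and Pdcd1, Lag3, Cd244a and Ctla4 lie between -2.71 and -1.49.

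Among all 10946 measured genes ordered from the lowest log2 ratio, Pdcd1 stood at place 27, Lag3 at 33, Cd244a at 51 and Ctla4 at 213. At least 4-fold lower were 3 of the 5 members, against 0.74% of all measured genes. These places describe the arrays and are no test, since the genes were chosen with earlier results of these data known. On SubA the well measured genes with the nearest log2 ratio over the 2 arrays were Pck2 (-2.72) and Napsa (-2.69) for Pdcd1, and Litaf (-2.63) and Slc2a3 (-2.63) for Lag3. For Cd244a they were Atf5 (-2.38) and Ckb (-2.44), and for Ctla4 Tmem176b (-1.49) and Stard10 (-1.49). Likeness over 2 arrays says only that the ratios were of equal size.

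The sequences upstream of 3 of the lower receptors and of the ligand with equal signals are given below so that they can be set side by side. RefSeq's table for GRCm38.p6 held a window for 6 of the 8 members, all but Lag3 and Cd200r1. Each sequence is the 250 bases before the annotated start, 5′ to 3′ on the gene's strand, and capitals mark matches on either strand to any of 3 motifs. The motifs were GGAAA (the core bound by NFAT, a factor activated by T cell receptor signals), TGANTCA (AP-1) and TTCNNNGAA (GAS, bound by STAT proteins).
Pdcd1 promoter, chr1:94052554-94052803, minus strand: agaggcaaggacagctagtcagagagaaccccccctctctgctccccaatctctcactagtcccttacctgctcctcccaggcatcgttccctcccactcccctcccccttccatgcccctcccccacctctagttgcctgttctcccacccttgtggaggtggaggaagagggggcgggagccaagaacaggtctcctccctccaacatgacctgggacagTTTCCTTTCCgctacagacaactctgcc
Ctla4 promoter, chr1:60908775-60909024, plus strand: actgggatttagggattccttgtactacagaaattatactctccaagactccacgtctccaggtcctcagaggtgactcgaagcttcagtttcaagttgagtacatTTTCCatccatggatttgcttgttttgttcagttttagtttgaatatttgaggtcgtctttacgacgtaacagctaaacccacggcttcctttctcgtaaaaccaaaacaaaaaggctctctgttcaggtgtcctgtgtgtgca
Cd244a promoter, chr1:171558943-171559192, plus strand: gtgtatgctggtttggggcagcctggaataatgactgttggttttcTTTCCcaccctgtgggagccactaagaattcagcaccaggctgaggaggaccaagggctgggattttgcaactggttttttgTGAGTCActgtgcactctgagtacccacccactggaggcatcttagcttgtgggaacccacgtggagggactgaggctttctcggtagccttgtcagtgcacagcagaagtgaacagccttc
Cd274 promoter, chr19:29367188-29367437, plus strand: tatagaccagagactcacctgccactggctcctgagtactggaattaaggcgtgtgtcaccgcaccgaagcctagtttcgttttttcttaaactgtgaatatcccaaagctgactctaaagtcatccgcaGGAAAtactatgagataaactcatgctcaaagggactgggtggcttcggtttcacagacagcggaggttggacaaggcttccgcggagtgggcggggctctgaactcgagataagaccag
The NFAT core was found in all 4 windows, and in 55.6% of 32851 such windows of the table, so its presence sets none of them apart. In Pdcd1 2 adjacent copies on the opposite strand lay from base 28 to 19 before the start. Ctla4 held 1 copy at bases 144 to 140, Cd244a 1 copy at 204 to 200 and Cd274 1 copy at 120 to 116. Only Cd244a of these 4 had an AP-1 match, at bases 122 to 116, which 6.75% of all windows have. No GAS match was found in these 4 windows, against 7.02% of all windows. The windows of the members Havcr2 and Cd200, which are not printed, held no NFAT core and no GAS match. Havcr2 had an AP-1 match at bases 200 to 194, and Cd200 had none. A match is a match of letters and no evidence of binding.

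Inhibitory receptors outside the 8 members lay in both directions. In a list of 17 further receptors, 11 were measured, 1 passed the 2-fold rule downward and 2 upward in CM cells, against 5.61% and 2.73% of all measured genes, and the median log2 ratio was 0.17. Btla, a CD28 family receptor that binds HVEM, had a log2 ratio of 3.19, with a signal of 1141.8 in CM and 125.1 in E/EM cells on SubB. That is 9.13-fold higher in CM cells, although the E/EM signal was only 1.42 times the floor, and the offset gave 2.77. Cd5, a negative regulator of T cell receptor signalling, had 1.13, with signals of 856.0 and 391.5. Cd160, which shares the ligand HVEM with Btla, had -1.01 with signals of 1328.7 and 2667.8, but a second probe set under the floor pulled it to -0.15 with the floor halved. The collagen receptor Lair1, which lay outside the naming rule and was picked after its values were seen, had 0.94 ± 0.09 (SD, 2 probe sets on 2 array types). Klrg1, a receptor of differentiated effector cells picked in the same way, read 19.9 and 21.1, under the floor in both kinds. Over the members and this list together, 16 genes were measured, of which 5 passed the rule downward, 2 upward and 9 in neither direction.

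Of 13 genes for ligands of these receptors 8 were measured, 6 with a log2 ratio below 0 and 2 above it. The 2-fold rule was passed downward by 2 and upward by 0, against 5.61% and 2.73% of all measured genes, and the median was -0.29. Cd80, a ligand of CTLA-4 and CD28, had -1.54 with weak signals of 49.0 and 142.8, and -0.96 with the offset. Pvr, a ligand of TIGIT and CD226, had -1.13 ± 0.59 (SD, 2 probe sets), and its SubA probe set was at 1.01 times the floor in CM cells. Lgals3, a galectin that binds LAG-3, had -0.98 ± 0.38 (SD, 2 probe sets on 2 array types), with strong signals of 3642.3 in CM and 8645.4 in E/EM cells on SubA. Cd86, the other CTLA-4 ligand, was above the floor in E/EM cells alone, by at least 1.43-fold. The 2 ligands above 0 were Cd48, the ligand of 2B4, at 0.35 with strong signals of 7122.1 and 5585.7, and Lgals9, a ligand of TIM-3, at 0.59 ± 0.06 (SD, 2 probe sets). These last 4 genes were picked after their values were seen.

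Of 22 genes for phosphatases, adaptors and ubiquitin ligases that act below these receptors, 20 were measured, and none of the 20 passed 2-fold in either direction. With 5.61% of all measured genes past 2-fold downward and 2.73% upward, that count is near the background. The ratios lay between -0.39 and 0.55, with a median of -0.02. The phosphatases SHP-1 and SHP-2, encoded by Ptpn6 and Ptpn11 and recruited by PD-1, had 0.19 and -0.07 ± 0.16 (SD, 2 probe sets). Sh2d1a, which encodes the adaptor SAP that binds 2B4, had 0.30. These 3 were picked for their role after their values were seen. The only gene of this list with a bound and no ratio was the adaptor Sh2d1b1, above the floor in E/EM cells alone, by at least 1.61-fold. Measured genes had bounds on further probe sets. In CM cells Sh2d1a was at least 1.69-fold higher on one, and Ptpn2 at least 1.53-fold higher on one and 1.09-fold lower on another.

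Transcription factors tied to T cell activation and exhaustion lay on both sides of 0, 10 below and 8 above, but past 2-fold only below. Of 22 listed, 18 were measured, and 5 passed the 2-fold rule downward in CM cells and 0 upward, against 5.61% and 2.73% of all measured genes, around a median of -0.10. Maf had the lowest value of any list, -5.13 with signals of 155.3, or 1.76 times the floor, and 5430.3 on SubB. Its other 3 probe sets were at or under the floor in CM cells and above it in E/EM cells, with bounds of up to 10.4-fold lower. With the floor halved Maf had -3.69, since a second SubB probe set with a log2 ratio of -2.25 entered the mean. Quantile normalization gave -3.53 and lowered the SubB floor from 88.12 to 78.89. Whether a further probe set entered that value too was not tested. Nr4a3 had no ratio, with both probe sets above the floor in E/EM cells alone. In CM cells it was at least 2.02-fold lower on SubB and 1.47-fold lower on SubC. Its CM signals lay just under the floor of the array type, at 0.93 and 0.95 times its value. Nr4a1 had 0.15 ± 1.62 (SD, 2 probe sets), with its probe sets on opposite sides of 0. Nr4a2 had -0.27 ± 0.30 (SD, 2 probe sets). Nfil3 had -1.83 ± 0.20 (SD, 2 probe sets), Irf4 -1.60, Prdm1 (Blimp-1) -1.36 and Bhlhe40 -1.35. The factors Tox at -0.48 ± 0.38 and Eomes at 0.75 ± 0.30 (SD, 2 probe sets each), both linked to exhausted cells, stayed within 2-fold. Tox, Eomes and the Nr4a genes were picked after their values were seen.

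Relatives and stimulatory partners of the receptors were mixed. Among 17 CD28, SLAM and TIM family relatives 10 were measured, 1 past the rule downward and 2 upward, around a median of 0.28. Besides Btla, which this list shares with that of the further inhibitory receptors, the SLAM receptor Ly9 had 1.25, and the costimulator Icos had -1.09 ± 0.46 (SD, 2 probe sets). The brightest Icos probe set alone had -0.76. Cd28 itself, the receptor that CTLA-4 opposes, had -0.59 with signals of 916.5 and 1381.4 and was picked after its values were seen. Of 8 costimulatory TNF receptors 5 were measured, 2 past the rule downward and 1 upward, around a median of -0.51. Of all measured genes, 5.61% passed the rule downward and 2.73% upward. With 10 and 5 genes measured, the 2 lists are too small to tell their counts from those shares. Tnfrsf4 (OX40) had -1.85 and Cd27 1.74 ± 0.41 (SD, 2 probe sets). The 2 probe sets of Tnfrsf9 (4-1BB) disagreed, with -2.80 for the stronger one and -0.09 for one near the floor.

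**Figure D3:**
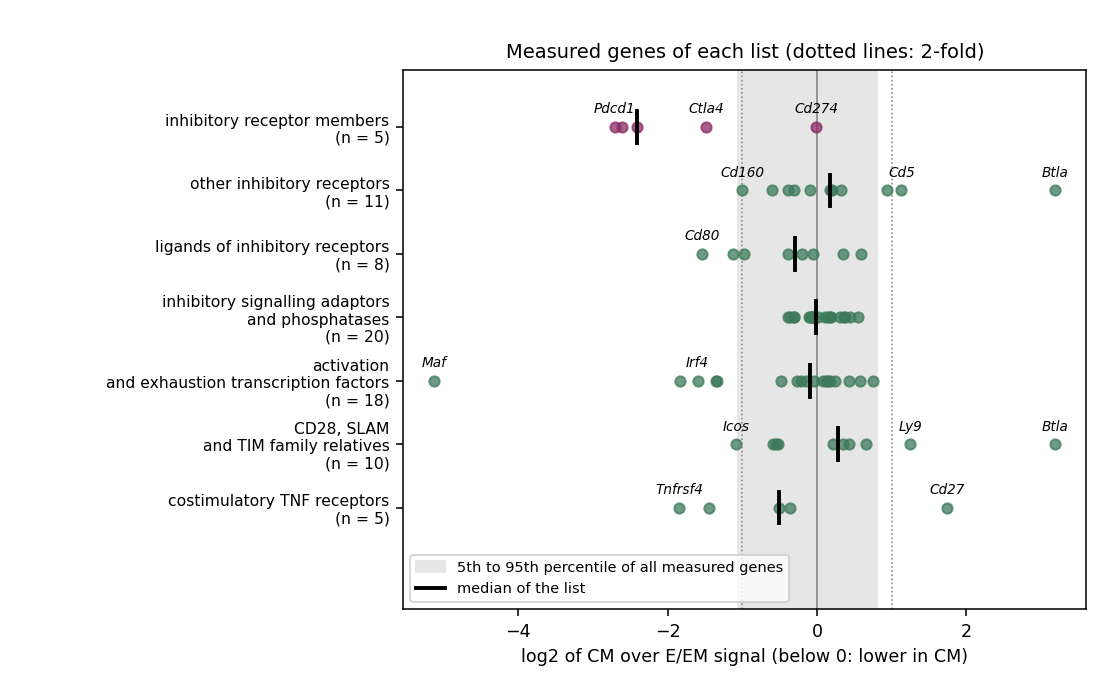
Log2 ratio, CM divided by E/EM, on the horizontal axis, of each measured gene, 1 row per list, with a black bar at the list's median; grey marks the 5th to 95th percentile of all 10946 measured genes, -1.06 to 0.81. The members lie at the low end apart from Cd274, while Btla and Cd5 lie above 1.

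Of 9 T cell markers on the arrays, Cd8a and Cd8b1 bear on the label of CD8+ T cells, with log2 ratios of 0.20 and 0.50. The others, such as Cd3e and Thy1, mark T cells in general and do not check that label. All 9 were above the floor in both kinds with ratios between -0.72 and 0.50, and their summed SubA signal was 56819 in CM and 56765.2 in E/EM cells. Several members are also carried by other cells, so their markers are given here, summed on SubA over the brightest probe set of each gene. The 2 natural killer cell markers on the arrays, Ncr1 and Fcgr3, were under the floor in both kinds, with sums of 32.5 and 30.9. Helper and regulatory T cell markers summed to 472.0 in CM and 1721.2 in E/EM cells over 4 genes. They include Il2ra, which activated CD8+ cells also express, at 234.2 and 1340.7 (log2 ratio -2.52). Cd4 read 131.7 and 49.3 (log2 ratio 1.42), but its E/EM signal was only 1.58 times the floor, and the offset gave 0.87. Zbtb7b was at least 9.74-fold lower in CM cells, and no probe set was named Foxp3.

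Macrophage, monocyte and neutrophil markers summed to 456.7 and 657.0 over 10 genes, of which 6 were under the floor in both kinds, among them Adgre1, Lyz2, Itgam and S100a8. Of the 4 measured, Cd68 alone passed 2-fold, at -1.16. Dendritic cell markers summed to 735.2 and 1166.3 over 8 genes, with H2-Ab1 at -1.29, H2-Eb1 at -1.23 and Itgax at 1.60. H2-Eb1 in CM cells was only 1.60 times the floor, and Itgax in E/EM cells 1.38 times. With the offset they had -0.74 and 0.95, within 2-fold. B cell markers summed to 637.2 and 570.1 over 7 genes, and none of the 5 measured passed 2-fold. Mast cell and basophil markers summed to 223.5 and 418.8 over 6 genes, of which 3 were under the floor in both kinds on every probe set. Of the 3 measured, Kit alone passed 2-fold, at -1.86. The CM signal of Kit was only 1.54 times the floor, and the offset gave -1.20. The part of helper T, myeloid, dendritic and mast cell RNA in the members' ratios was not tested. In such bulk RNA a smaller share of cells that carry a receptor and less RNA per cell cannot be told apart.

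The lower receptors stayed lower in CM cells under every alternative that gave them a ratio. Each has 1 probe set, so changing the floor, taking the brightest probe set or leaving out shared ones could not move its ratio. Only quantile normalization, centring and the offset could, and they rework the same pair of arrays. The kept direction therefore says little of how far a repeat would differ. Over 7 alternatives Lag3 ranged from -2.64 to -2.27, Cd244a from -2.43 to -1.89 and Ctla4 from -1.51 to -1.44. Pdcd1 ranged from -2.74 to -1.77 over 6 alternatives, since with the doubled floor it had a bound and no ratio.

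**Figure D4:**
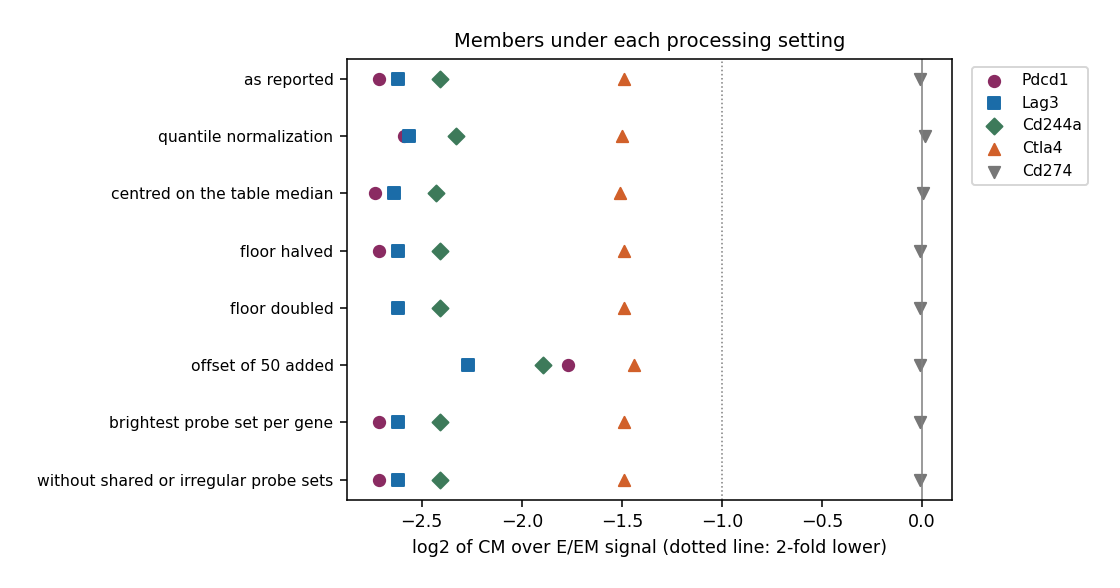
Log2 ratio, CM divided by E/EM, on the horizontal axis, of the 5 measured members, 1 row per processing setting, with a dotted line at 2-fold lower. Every ratio of Pdcd1, Lag3, Cd244a and Ctla4 lies to the left of that line, Pdcd1 moves most (to -1.77 with the offset), and it has no ratio with the floor doubled.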

How the data were processed

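Total RNA of CM and E/EM cells was put on SubA, SubB and SubC arrays, 6 in all, and the labels name no other step. The authors deposited intensity values on a linear scale. Trimmed by 2% at either end, their mean was 500.1 to 500.3 on every array, as after scaling to a common target. Image analysis, scaling and detection steps are not described (not given in the sources used here), and the values were not changed. SubA, SubB and SubC held 12488, 12477 and 11934 probe sets, of which 10855, 10603 and 7739 had 1 symbol, 396, 178 and 150 several and 1237, 1696 and 4045 none. Between 47.1% and 69.1% of an array's probe sets were above the floor. A log2 ratio was computed where both signals exceeded the floor, and a bound, the signal divided by the floor, where 1 did. A gene's value is the mean over its measured probe sets. The number of arrays limits the precision. Named genes are the members, up to 5 genes per list at 2-fold or more, bounds of 4-fold or more, and the 2 nearest genes on SubA per lower member. Members and lists were chosen with earlier results of these data known. The 8 alternatives were quantile normalization, centring, the floor halved or doubled, the offset, the brightest probe set, leaving out shared or irregular probe sets, and a 3-fold rule. Calculations used Python 3.11.15, numpy 2.4.6 and pandas 2.3.3 and were tested on simulated data. The gene of the sorting marker is not reported here.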

Additional observations from a re-analysis of the deposited data

How the results depend on the processing

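No test was run and no array could be left out, since every group is a single array. No paired analysis was possible because each group holds 1 sample and the result comes from no test. The count of members at least 2-fold lower was 4 in all alternatives except the doubled floor, where Pdcd1 has only a bound, and the 3-fold rule, which Ctla4 misses, with 3 each. The count of higher members stayed at 0. The members' median of -2.41 was -1.95 with the floor halved (Cd200 enters) or doubled (Pdcd1 leaves) and -1.77 with the offset, which also gave Pdcd1 -1.77, Lag3 -2.27 and Cd244a -1.89. Counts of the other lists are small and moved by more than 1.5 times as follows. Lower genes among the further inhibitory receptors were 0 with the floor halved, the offset and the 3-fold rule, which also left 1 higher. Lower ligands were 1 with quantile normalization and without shared probe sets, and 0 with the floor doubled, the offset and the 3-fold rule. Signalling genes had 1 lower with the floor halved. Family relatives had 1 higher with the floor doubled, 0 lower with the brightest probe set, and 0 lower and 1 higher with the 3-fold rule. That rule left 3 lower transcription factors and 1 lower TNF receptor. Weak signals limit Pdcd1, Btla, Cd80 and Pvr among others, and Cd200 and Cd200r1 could not be read.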

Other observations

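The transferrin receptor, which takes up iron in dividing cells, was measured by 3 control probe sets on each of the 3 array types. Its log2 ratio, CM divided by E/EM, was above 0 in all 9 readings, from 0.68 to 2.00. The 3 control probe sets for pyruvate carboxylase, an enzyme that replenishes the citric acid cycle, were below 0 in all 9 readings, from -2.56 to -0.72. Actin and Gapdh controls on the antisense probe sets lay between -0.32 and 0.31. Their sense probe sets spread more widely, from -0.47 for actin to 1.13 for Gapdh. No member is among the probe sets that all 3 array types carry.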
